A study of Mus musculus with 6 samples.

Results

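The comparison described here set the hippocampus of the mouse against its cerebral cortex. It rests on 4 of the 6 microarrays of a study in which male mice of the inbred BALB/c strain received 1 dose of saline or of PAMAM dendrimers into the nose at the age of 8 weeks. PAMAM dendrimers are branched polyamidoamine polymers studied as carriers of drugs and nucleic acids, and the dose was 0.15 mg/kg. Tissue was taken after 24 h. The 4 groups are hippocampus after saline, hippocampus after PAMAM, cortex after saline and cortex after PAMAM, each with 1 array that carries RNA pooled from 6 independent experiments. The 4 arrays were chosen by their labelled tissue and not by any measured value, and the olfactory bulb arrays were left aside. The comparison itself and the gene lists were chosen with earlier results of these data known. Treatment entered the fit as a block, so each region has 2 arrays, and a p-value sets the mean regional difference against its spread, which is the departure of the difference on the saline arrays from that on the PAMAM arrays, moderated by limma's prior over probes. Whether the hippocampus and cortex of a treatment were taken from the same animals is not given in the labels.

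The hippocampus and the cortex are neighbouring parts of the forebrain whose excitatory neurons are arranged differently. In the hippocampus, granule cells of the dentate gyrus send mossy fibres to the pyramidal cells of CA3, which project to CA1, and the small field CA2 lies between them. The cortex is built of layers, with neurons of the upper layers projecting mainly within the cortex and those of the deep layers to the striatum, thalamus, brainstem and spinal cord. The choroid plexus, the epithelium that secretes cerebrospinal fluid, hangs in the ventricle beside the hippocampus, and the striatum lies beneath the cortex.

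All values below are log2 signals relative to the 75th percentile of the array, and differences are hippocampus minus cortex on that log2 scale. Between 34134 and 36762 of the 59305 non-control spots of an array were well above background, 0 were saturated, and repeated spots of a probe differed by a median SD of 0.066 to 0.07. A probe was tested if it was well above background on both arrays of at least 1 region, which held for 32146 probes and 22621 genes, each gene being represented by its brightest probe. The test was limma with an intensity trend, with p-values adjusted by Benjamini-Hochberg over all tested probes, and a gene was called at an adjusted p under 0.05.

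Hippocampus and cortex differed in a large set of genes. Of 22621 genes, 1380 were called higher in the hippocampus (6.1%) and 1906 lower (8.43%), and 527 (2.33%) and 451 (1.99%) of these differed at least 2-fold, against 222 and 253 with normexp background correction. The median difference over all genes was -0.03. The number of calls depends strongly on the variance model, since 4 arrays and a block leave 1 residual degree of freedom. Over probes, 4251 of 32146 were called (13.2%), against 617 without the intensity trend, where 261 genes were called higher and 193 lower, every one of them at least 2-fold. Leaving out the saline hippocampus array, and with it the block, left 495 genes higher and 595 lower, and leaving out the PAMAM hippocampus array left 548 and 788. Counts without the trend, and without an array where that moves them by over 1.5 times, are therefore given below beside the main ones. The counts of each list are to be read against the 6.1% and 8.43% of all genes called higher and lower. Counts at an unadjusted p under 0.05 are given as a description only, since the share of all genes at that cut was not counted.

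The regional difference was largely shared by both treatments. Among 21308 genes well above background on all 4 arrays, the difference on the saline arrays and that on the PAMAM arrays had a Pearson r of 0.71 across genes, which are not independent replicates. On the saline arrays 938 of these genes differed at least 2-fold and on the PAMAM arrays 743, and 527 did so in both, in the same direction, which is 56.2% of the first set and 70.9% of the second. Of the 938 genes, 892 had the same sign on the PAMAM arrays, and 4 were past 2-fold in opposite directions.

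**Figure D1:**
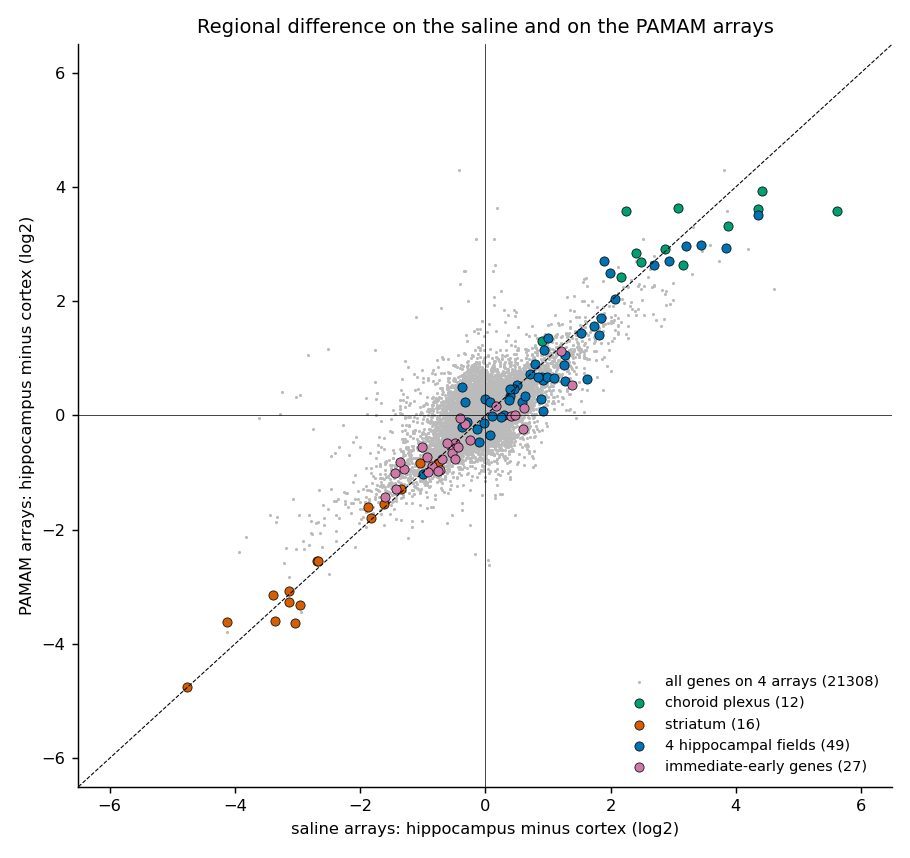
Each point is a gene well above background on all 4 arrays, with hippocampus minus cortex (log2) on the saline arrays on the x axis and on the PAMAM arrays on the y axis, and the dashed line marks equal values. The 16 striatum genes lie at the lower left and the 12 choroid plexus genes at the upper right on both pairs, and the 27 immediate-early genes lie mostly below 0 on both.

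Genes of 3 neighbouring tissues lay far from 0 in this comparison. Since the lists were drawn up with earlier results of these data known, their counts here and below are a description and no independent test. All 20 choroid plexus genes were called higher in the hippocampus, and 13 of the 20 passed without the intensity trend. The median was 3.47 (3.13 with genes not above background at their bound, and 2.26 with normexp background correction). Of the 20, 12 were well above background on all 4 arrays, and the median over the brighter probes was 2.90. A gene that passed the filter through the hippocampus arrays alone could hardly come out lower, so 20 of 20 is no independent support. Ttr, which encodes the thyroid hormone carrier transthyretin and is the leading product of choroid plexus epithelium, had 7.27 and 7.95 on the hippocampus arrays (saline and PAMAM) and 1.66 and 4.38 on the cortex arrays. That is a difference of 4.59 ± 0.37 (SE, limma adjusted p = 0.00017), the largest on the hippocampus side among genes measured on all 4 arrays, though the adjusted p was 0.062 without the trend. Folr1, a folate receptor, differed by 4.17 ± 0.13 and Aqp1, a water channel of the choroid epithelium, by 3.59 ± 0.17. The summed linear signal of the 20 genes, in multiples of the 75th percentile, was 178 and 287 on the hippocampus arrays and 5.79 and 25.3 on the cortex arrays. Within each region it was higher on the PAMAM array, while the regions did not overlap.

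Cilia and ependyma genes, of the cells that line the ventricles, followed the same direction: 10 of 12 were called higher and 0 lower, with a median of 1.28 (5 higher without the trend). Foxj1, the master regulator of motile cilia, named after its values were seen, had -0.86 and -0.62 in the hippocampus against -1.97 and -2.0 in the cortex, and Tekt1, a protein of the ciliary microtubules, differed by 1.61 ± 0.12. Their arrays did not overlap between regions. Over the list 12 of 12 genes lay higher in the hippocampus without overlap and 0 lower, where 23.7% and 31.3% of all genes did so. Dnah11 passed the filter through the hippocampus arrays alone and could hardly come out lower.

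Striatal genes stood on the other side. All 18 were called lower in the hippocampus, with a median of -2.86, and 16 of the 18 passed without the trend. Of the 18, 16 were well above background on all 4 arrays. The others, Isl1 and Drd2, passed the filter through the cortex arrays and could hardly come out higher in the hippocampus. Adora2a, an adenosine receptor of striatopallidal neurons, had -2.62 and -2.49 in the hippocampus against 2.14 and 2.26 in the cortex, a difference of -4.76 ± 0.10 (limma adjusted p = 1.3e-06). Drd1, the D1 dopamine receptor, had -2.41 and -2.43 against 0.71 and 0.64, and Ppp1r1b, which encodes the dopamine-regulated phosphatase inhibitor DARPP-32, differed by -2.62 ± 0.08. The saline and PAMAM arrays of a region lay close together for these genes, and the regions far apart. The summed signal of the 18 genes was 54.3 and 56.8 on the hippocampus arrays and 264 and 273 on the cortex arrays. Genes of cholinergic neurons were among the largest bounds on the cortex side. Lhx8, a transcription factor of forebrain cholinergic neurons, was well above background on both cortex arrays (-0.46 and -0.84) and on neither hippocampus array, at least 17.9-fold higher, and Slc5a7, the choline transporter, was at least 11.9-fold higher.

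These lists bear on what follows, since a gene expressed in choroid plexus or striatum as well as in neurons can differ between these arrays with those tissues, and in pooled tissue fewer cells of a type and less RNA per cell cannot be told apart. Their part in the results below was not tested. Of 20 genes of meninges and fibroblasts, 4 were called higher and 0 lower (median 0.04), or 4 and 8 without the saline cortex array, with summed signals of 35.0 and 36.7 in the hippocampus against 18.3 and 29.9 in the cortex. Dcn, which encodes the proteoglycan decorin, led them at 2.42 ± 0.19.

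**Figure D2:**
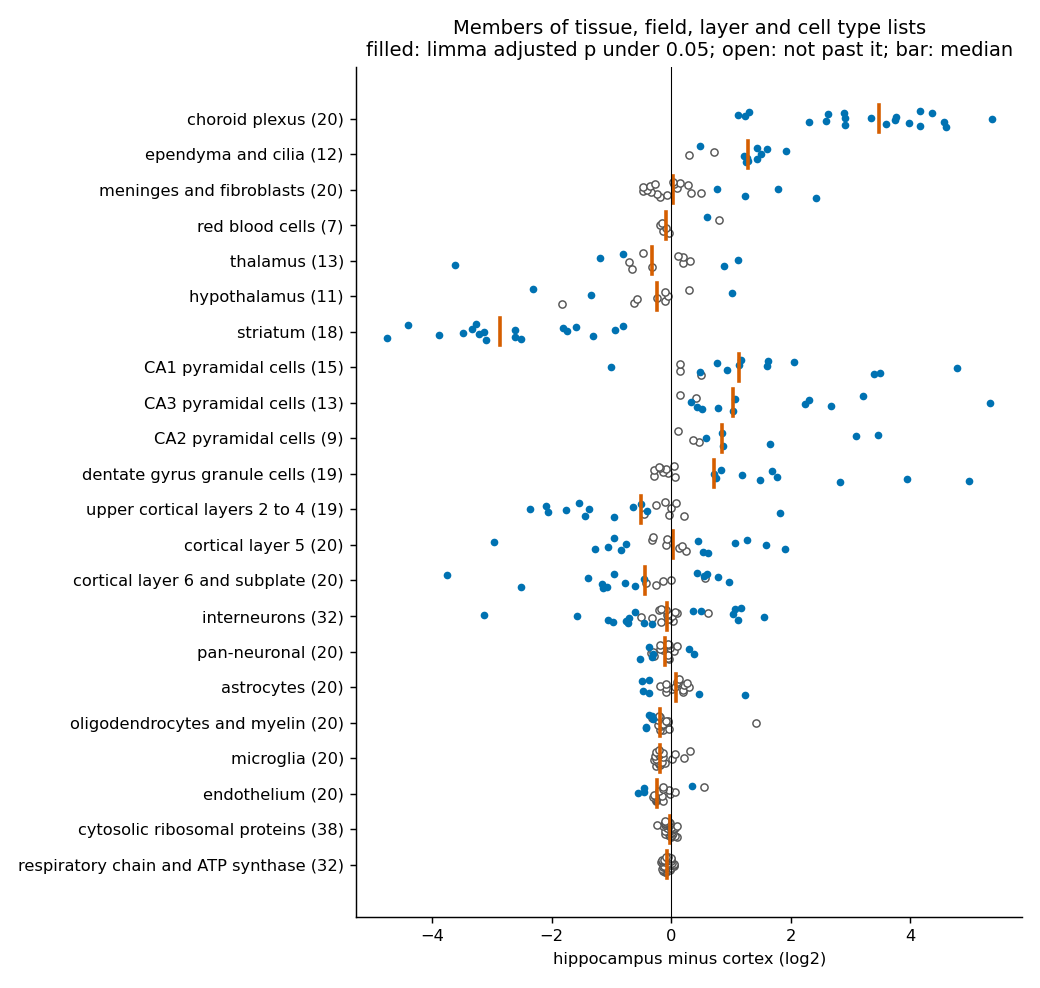
Each row is a gene list with its number of tested genes, each point a gene at hippocampus minus cortex (log2), filled where limma's adjusted p was under 0.05 and open where it was not, and the bar is the list's median. Choroid plexus and striatum stand farthest from 0 (medians 3.47 and -2.86), the hippocampal fields lie to the right, and the ribosomal and respiratory chain genes lie within -0.23 and 0.09.

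Over the lists of the dentate gyrus, CA3, CA2 and CA1 together, 38 of 56 tested genes were called higher and 1 lower, against 6.1% and 8.43% of all genes. The median was 0.84. Of the 56 genes, 49 were well above background on all 4 arrays, and the median over the brighter probes was 0.75. The 38 include genes such as Slc9a4, Avpr1b and Glis3 that passed the filter through the hippocampus arrays alone. These could hardly come out lower. Without the trend 18 were higher, and with 1 array left out between 22 and 39. The lowest count came without the saline hippocampus array. A list of subiculum and hilar mossy cells went another way, with 2 of 8 genes called higher, 3 lower and a median of 0.06 (0 and 1 without the trend, 0 and 1 without the saline hippocampus array). One of its genes, Drd2, is also in the striatum list.

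Of 19 dentate gyrus genes 10 were called higher and 0 lower, with a median of 0.72 (6 higher without the trend, 6 without the saline hippocampus array). The median was 0.20 with a gene not above background in the cortex at its bound, 0.20 with normexp and 0.06 over the brighter probes. Without overlap of the arrays 10 members lay higher in the hippocampus and 5 lower, where 23.7% and 31.3% of all genes did so. At an unadjusted p under 0.05 in the limma fit 10 of the list were higher and 3 lower. Prox1, a homeobox gene that specifies granule cell identity, had -0.85 and -1.08 in the hippocampus and -3.78 on both cortex arrays, a difference of 2.82 ± 0.17 (limma adjusted p = 5.4e-05). Its probe lies at chr1:191945785-191945844 in the mm9 build of the files. Lct, the lactase gene, which marks granule cells in the mouse, had 2.71 and 2.48 against -1.65 and -1.03, and C1ql2, a secreted synaptic protein of mossy fibres, differed by 1.49 ± 0.18. Dsp, a desmosome protein also found in granule cells, had 0.94 and 0.75 in the hippocampus and was well above background on 1 of the 2 cortex arrays. All of these kept their call without the trend.

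Of 13 CA3 genes 11 were called higher and 0 lower, with a median of 1.03 (4 higher without the trend, 7 without either hippocampus array). Tspan18, a tetraspanin, had 2.10 and 2.05 in the hippocampus against -1.34 and -0.93 in the cortex, a difference of 3.21 ± 0.12. Npy2r, the presynaptic neuropeptide Y receptor Y2, had 0.35 and 0.03 against -2.35 and -2.62, a difference of 2.67 ± 0.12, and a second probe of the gene gave 4.15. Slc9a4, a sodium-proton exchanger, was well above background on both hippocampus arrays and neither cortex array, at least 11-fold higher, which was the largest bound on the hippocampus side among genes with a symbol. Grik4, a kainate receptor subunit of mossy fibre synapses, had a smaller difference of 1.03 ± 0.08, from 3.28 and 3.44 against 2.35 and 2.30. The regions did not overlap for any of these. Over the list 12 of 13 genes lay higher in the hippocampus without overlap and 0 lower, where 23.7% and 31.3% of all genes did so.

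In CA2, 6 of 9 genes were called higher and 0 lower, with a median of 0.85 (3 higher without the trend, 4 without the saline hippocampus array). Ntf3, which encodes the neurotrophin NT-3, had 0.66 and 0.55 against -2.55 and -2.41, a difference of 3.09 ± 0.13, and Amigo2, an adhesion protein, had -1.61 on both hippocampus arrays against -3.35 and -3.18. Avpr1b, the vasopressin receptor known for the part of CA2 in social memory, was above background in the hippocampus alone, at least 3.51-fold higher. Rgs14, a regulator of plasticity in CA2, differed by 0.87 ± 0.11 and did not pass without the trend (limma adjusted p = 0.094).

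Of 15 CA1 genes 11 were called higher and 1 lower, with a median of 1.13 (5 and 0 without the trend, 5 and 1 without the saline hippocampus array). Spink8, a protease inhibitor gene of CA1, had 3.04 and 2.95 against -0.80 and 0.02, and Nr3c2, the mineralocorticoid receptor, had -0.23 and -0.47 against -2.31 and -2.50, a difference of 2.05 ± 0.13. Zbtb20, a transcription factor needed for CA1 identity, had 4.23 and 3.94 against 2.41 and 2.53, or 1.62 ± 0.10. Wfs1, a widely used CA1 marker, did not pass: it had 4.92 and 4.60 against 4.0 and 4.51, so the difference was 0.92 on the saline arrays and 0.08 on the PAMAM arrays (0.50 ± 0.17, limma adjusted p = 0.095). Zdhhc22, a palmitoyltransferase, was the member that went the other way, at -1.01 ± 0.08.

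Upper-layer genes of the cortex were mostly lower in the hippocampus. Of 19 genes of layers 2 to 4, 11 were called lower and 1 higher (median -0.50), and 3 were lower without the trend. Rspo1, a secreted enhancer of Wnt signalling, had -0.40 and 0.37 in the hippocampus against 2.58 and 2.12 in the cortex, a difference of -2.37 ± 0.23 (limma adjusted p = 0.00043, 0.076 without the trend). Cux2, a homeobox gene of upper-layer neurons, had 0.76 and 0.91 against 2.30 and 2.25, or -1.44 ± 0.09, and Rorb, the orphan nuclear receptor of layer 4, differed by -1.37 ± 0.18. Lamp5, a membrane protein of layers 2 and 3 and of some interneurons, had -0.01 and 0.62 against 2.38 and 2.37. The exception was Mdga1, an adhesion protein that regulates synapse formation, which was higher in the hippocampus, with 2.96 and 3.0 against 0.68 and 1.65 (1.82 ± 0.18).

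Layer 5 genes were split, with 7 of 20 called higher, 6 lower and a median of 0.03 (2 and 1 without the trend, 3 and 4 without the saline and 4 and 5 without the PAMAM hippocampus array). Crym, a thyroid hormone binding protein, had 5.50 and 5.36 in the hippocampus against 3.75 and 3.95, and Fezf2, which specifies subcortical projection neurons, was higher by 0.62 ± 0.09. Pcp4, a calmodulin regulator, had 4.91 and 5.04 against 6.29 and 6.20, and Myl4, a myosin light chain, had 0.07 and 1.74 against 3.89 and 3.87 (-2.97 ± 0.31). Deep-layer and subplate genes leaned to the cortex, with 10 of 20 called lower and 5 higher (median -0.44, 2 lower and 0 higher without the trend, 7 and 2 without the saline and 9 and 2 without the PAMAM hippocampus array). Tbr1, the transcription factor of corticothalamic neurons, had 3.44 and 3.63 against 4.71 and 4.66, or -1.14 ± 0.09, and Garnl3 differed by -1.39 ± 0.09. Nr4a2, an orphan nuclear receptor of the subplate and claustrum, was the member farthest in the other direction at 0.97 ± 0.17.

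**Figure D3:**
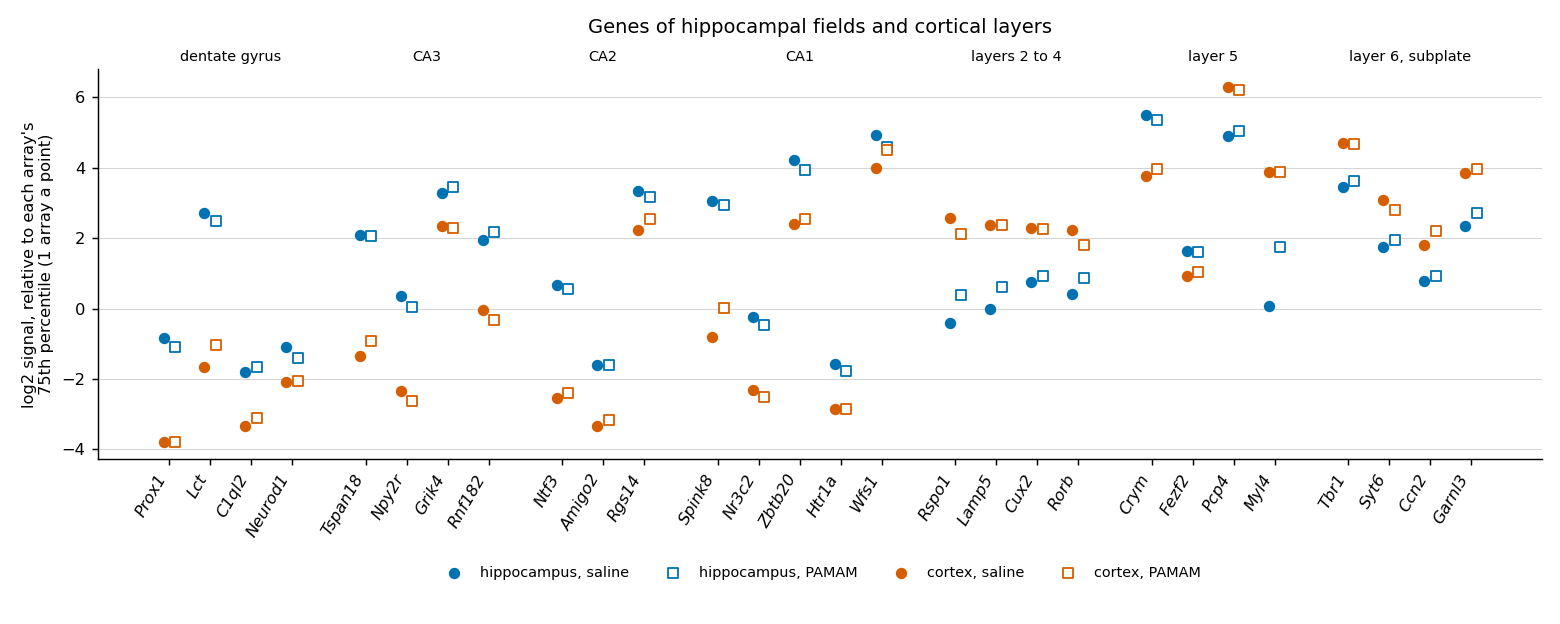
Each point is 1 array's log2 signal relative to its 75th percentile, for genes of the hippocampal fields and of the cortical layers, with hippocampus in blue, cortex in orange, saline filled and PAMAM open. The genes drawn are a selection. The blue points lie above the orange ones for the field genes drawn, with Wfs1 the closest (4.60 against 4.51). They lie below them for the genes drawn of layers 2 to 4 and of layer 6. Members called in the other direction are not drawn: Zdhhc22 of CA1, Mdga1 of layers 2 to 4 and 5 of 20 genes of layer 6 and subplate.

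Transcription factors that pattern the forebrain were evenly divided, with 20 of 59 called higher, 19 lower and a median of 0.01. Without the trend 4 were higher and 6 lower, and without the saline hippocampus array 9 and 16. On the hippocampal side Lhx9, a LIM homeobox gene, had -0.15 and -0.40 against -3.61 and -3.28 (3.17 ± 0.18), Bhlhe22 differed by 1.61 ± 0.15, and Nr2f2, known as COUP-TFII, by 1.56 ± 0.17. Neurod6, a proneural factor of pyramidal neurons, had 3.07 and 2.89 against 1.42 and 1.56. On the cortical side Meis1, a homeobox gene, had -1.43 and -1.41 against 0.26 and 0.24. Six3, a homeobox gene that striatal neurons also need, was lowest in the hippocampus relative to cortex, at -2.67 ± 0.20.

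Immediate-early genes, which neurons transcribe within minutes of activity, were mostly lower in the hippocampus. Of 29 tested genes 18 were called lower and 3 higher, with a median of -0.55 that was -0.54 on the saline arrays and -0.56 on the PAMAM arrays. Egr2, a zinc finger factor, had 0.30 and 0.59 in the hippocampus against 1.91 and 2.03 in the cortex (-1.52 ± 0.09, limma adjusted p = 4.5e-05), and Egr1 had 3.63 and 3.85 against 5.06 and 5.12 (-1.35 ± 0.08). Arc, whose product acts on AMPA receptor endocytosis at synapses, had 4.33 and 4.76 against 5.63 and 5.70. Ier5 and Trib1 were lower by similar amounts, at -1.09 and -1.23. The regions did not overlap for these 5 genes. Over the list 15 of 29 genes lay lower in the hippocampus without overlap and 4 higher, where 31.3% and 23.7% of all genes did so. Jun had 4.13 and 3.91 in the hippocampus against 2.92 and 2.79 in the cortex (1.17 ± 0.08), and so stood against the list. Bdnf, the neurotrophin induced by activity, had 0.71 and 1.26 against 0.30 and 1.28, a difference of 0.20 ± 0.11 that did not pass. Only Egr1 and Egr2 of the lower genes and Jun of the higher ones passed without the trend, and with 1 array left out between 10 and 16 genes were lower, fewest without the PAMAM hippocampus array, and between 1 and 6 higher, most without the PAMAM cortex array. The median was -0.34 without the saline hippocampus array. The striatum genes were also higher on the cortex arrays in both pairs. With 1 array left out their median stayed between -2.94 and -2.86, while that of the immediate-early genes ranged from -0.69 to -0.34. The part of the striatum genes in this list was not tested.

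The Nr4a family of orphan nuclear receptors was divided. Nr4a1 had 4.76 and 4.92 in the hippocampus against 5.67 and 5.91 in the cortex, a difference of -0.95 ± 0.08 (limma adjusted p = 0.0002). Nr4a2 had 3.33 and 3.13 against 1.94 and 2.59 (0.97 ± 0.17, limma adjusted p = 0.0069), with 0.94 from a second probe. Nr4a3 had -2.67 and -3.03 against -3.68 and -4.67 (1.32 ± 0.27, limma adjusted p = 0.015), and was well above background on 1 of the 2 cortex arrays. Fos, named after its values were seen, with 0.80 and 0.44 against 1.65 and 1.33, went with Nr4a1 at -0.87 ± 0.09. Without the trend the adjusted p of these genes was 0.053, 0.16, 0.076 and 0.058.

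The promoters of these 4 genes are shown because the family members differed in direction while their upstream sequence shares a motif. The letters TGACG, the half-site of the cyclic AMP response element bound by CREB, were searched on both strands, as TGACG or CGTCA, in the 250 bases upstream of each RefSeq start (GRCm38.p6). They occurred in 5836 of 32851 such windows (17.8%), or 5347 of 27025 genes (19.8%), and in 14 of the 22 immediate-early genes with a window (63.6%). Fos has 2 of them, and Nr4a1, Nr4a2 and Nr4a3 have 4 each, marked in capitals. A match is a description of the letters and says nothing of binding in these tissues.
Fos, chr12:85473640-85473889, plus strand: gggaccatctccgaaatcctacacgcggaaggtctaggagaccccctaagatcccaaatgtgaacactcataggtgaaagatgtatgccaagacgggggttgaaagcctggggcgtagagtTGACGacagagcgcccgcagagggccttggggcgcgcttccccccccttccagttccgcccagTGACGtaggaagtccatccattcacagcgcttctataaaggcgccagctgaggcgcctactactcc
Nr4a1, chr15:101266596-101266845, plus strand: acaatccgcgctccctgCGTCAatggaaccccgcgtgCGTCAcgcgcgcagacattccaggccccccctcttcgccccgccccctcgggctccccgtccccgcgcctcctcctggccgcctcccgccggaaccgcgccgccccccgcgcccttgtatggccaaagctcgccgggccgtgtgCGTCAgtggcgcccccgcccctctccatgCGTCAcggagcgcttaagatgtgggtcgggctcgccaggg
Nr4a2, chr2:57124004-57124253, minus strand: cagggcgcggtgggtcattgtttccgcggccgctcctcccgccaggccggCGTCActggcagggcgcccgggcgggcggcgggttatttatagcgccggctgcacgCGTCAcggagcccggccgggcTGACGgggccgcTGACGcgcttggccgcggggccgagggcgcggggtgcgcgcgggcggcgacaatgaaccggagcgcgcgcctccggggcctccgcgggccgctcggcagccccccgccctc
Nr4a3, chr4:48045055-48045304, plus strand: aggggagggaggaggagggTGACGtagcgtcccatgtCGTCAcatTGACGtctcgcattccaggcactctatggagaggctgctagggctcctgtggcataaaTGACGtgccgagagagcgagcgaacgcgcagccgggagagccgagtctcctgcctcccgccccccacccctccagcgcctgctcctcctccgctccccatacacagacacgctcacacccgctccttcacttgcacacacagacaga
The number of half-sites was thus the same in Nr4a1, which was lower in the hippocampus, and in Nr4a2 and Nr4a3, which were higher.

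**Figure D4:**
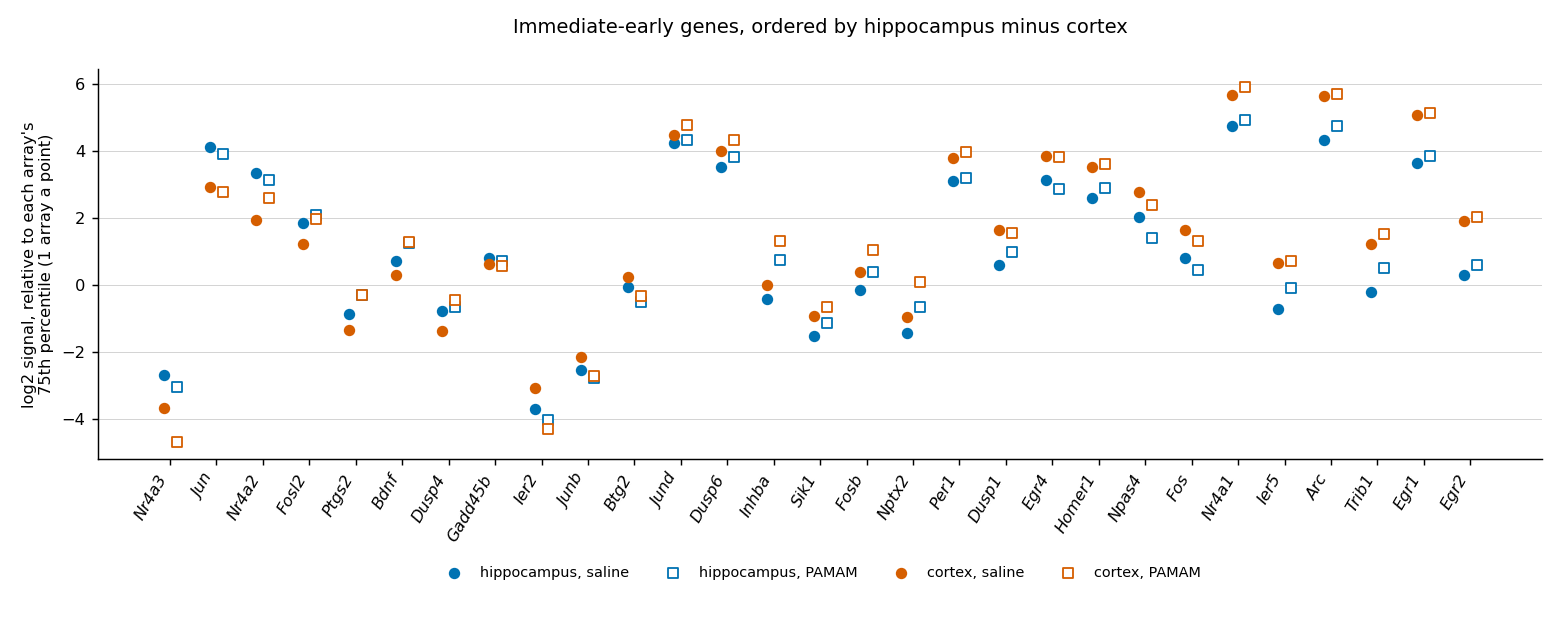
Each point is 1 array's log2 signal relative to its 75th percentile for an immediate-early gene, ordered by hippocampus minus cortex, with hippocampus in blue, cortex in orange, saline filled and PAMAM open. Nr4a3, Jun and Nr4a2 on the left have the blue points above the orange ones, and from Trib1 to Egr2 on the right the blue points lie below the orange ones, for Egr2 at 0.30 and 0.59 against 1.91 and 2.03.

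Glutamate receptor genes differed by subunit rather than as a group, with 8 of 43 called higher, 9 lower and a median of 0.04 (2 and 0 without the trend, 5 and 5 without the saline and 5 and 7 without the PAMAM hippocampus array, and 13 and 9 with quantile normalization). Shisa6, which keeps AMPA receptors at the synapse, had 2.88 and 2.96 in the hippocampus against -0.55 and 0.01 in the cortex (3.19 ± 0.12, limma adjusted p = 8.6e-06). Gria1, the GluA1 subunit of AMPA receptors, had 2.13 and 2.04 against 0.38 and 0.62 (1.59 ± 0.10), and both passed without the trend. The AMPA receptor partners Cacng8 and Cnih2 were higher by 1.18 ± 0.15 and 0.95 ± 0.12. In the other direction stood Gria4 at -0.77 ± 0.09, the AMPA receptor partner Cacng3 at -0.80 ± 0.09, the kainate receptor subunit Grik3 at -0.74 ± 0.08 and the metabotropic receptor Grm8 at -0.80.

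Among GABA and glycine receptor genes 4 of 22 were called higher and 8 lower, with a median of -0.21 (3 and 2 without the saline and 3 and 4 without the PAMAM hippocampus array). Gabra5, the alpha5 subunit of extrasynaptic GABA-A receptors in hippocampal pyramidal cells, had 1.58 and 1.28 against -0.30 and -0.28 (1.72 ± 0.11) and was the gene of this list that passed without the trend. Gabra2 and Gabrb1 were higher by 0.91 ± 0.11 and 0.79 ± 0.09. Gabrd, the delta subunit of tonic inhibition, had 2.17 and 2.55 against 4.02 and 3.86 (-1.58 ± 0.12, limma adjusted p = 0.00014, and 0.057 without the trend), and Gabra3 was lower by 0.89 on the log2 scale.

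Receptors for monoamines and acetylcholine fell into a hippocampal and a cortical set, with 8 of 32 called higher and 7 lower (2 and 5 without the saline and 5 and 7 without the PAMAM hippocampus array). Drd5, the D5 dopamine receptor, was above background in the hippocampus alone, at least 6.13-fold higher. Htr4, a serotonin receptor coupled to cyclic AMP, had -0.09 and -0.17 against -2.20 and -1.88 (1.91 ± 0.14), and Htr1a, an inhibitory serotonin receptor, had -1.57 and -1.78 against -2.84 on both cortex arrays (1.16 ± 0.17). Chrna7, the alpha7 nicotinic subunit, differed by 1.13 ± 0.16. Htr2a, the serotonin receptor of cortical pyramidal cells, had -1.0 and -0.58 against 0.22 and 0.01 (-0.91 ± 0.15), and the histamine receptor Hrh1 and the adrenergic receptor Adrb1 were lower by 1.06 and 1.05 on the log2 scale. Of these, Drd5 and Htr4 passed without the trend, as did Drd1 and Drd2, which belong to the striatum list.

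Neuropeptide genes leaned to the cortex, with 11 of 31 called lower, 3 higher and a median of -0.42 (4 lower and 1 higher without the trend, 6 and 1 without the saline hippocampus array, 17 and 4 without the saline cortex array). The farthest were Penk, the enkephalin precursor, which is also in the striatum list, with 2.46 and 2.41 in the hippocampus against 5.83 and 6.01, and Tac1, the substance P precursor of the same list. Pdyn, the dynorphin precursor of both striatum and dentate gyrus, differed by -2.75 ± 0.17, and Crh, corticotropin-releasing hormone, had -1.58 and -0.35 against 0.32 and 0.88 (-1.57 ± 0.16). Grp, gastrin-releasing peptide, was the clearest exception, with 1.60 and 1.46 against -1.07 and -0.32 (2.22 ± 0.18). Peptide receptors were balanced, with 8 of 29 higher and 7 lower (5 and 2 without the trend, 5 and 6 without the PAMAM hippocampus array). Besides Npy2r and Avpr1b, the melanocortin receptor Mc4r was higher by 1.92 ± 0.16 and the thyrotropin-releasing hormone receptor Trhr by 1.53 ± 0.14. Cckbr, the cholecystokinin receptor of the brain, had 0.39 and 0.92 against 2.29 and 2.62 (-1.80 ± 0.09), and Crhr1 was lower by 1.18 on the log2 scale. Oprk1, the kappa opioid receptor, was above background in the cortex alone, at least 5.06-fold higher.

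Interneuron genes were called in both directions, 7 of 32 higher and 10 lower, with a median of -0.07 (2 and 1 without the trend, 3 and 5 without the saline and 4 and 7 without the PAMAM hippocampus array). Nos1, neuronal nitric oxide synthase, and Ndnf, a marker of neurogliaform cells, were higher by 1.55 ± 0.17 and 1.16 ± 0.15, and both passed without the trend. Tac1 was the lowest of the list at -3.14, and Crh, Npy and Pvalb, the calcium-binding protein of fast-spiking cells, followed at -1.57, -1.05 and -0.97.

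Of 55 tested potassium channel subunit genes 24 were called lower in the hippocampus and 4 higher, and 27 did not pass, with a median of -0.31, against 8.43% and 6.1% of all genes. Kcnh5, a slowly activating voltage-gated channel, had -1.19 and -0.49 against 1.41 and 1.08 (-2.09 ± 0.21), Kcnv1, a silent subunit that modifies other channels, had 0.51 and 0.80 against 1.97 and 2.04 (-1.35 ± 0.09), and Kcnt1, a sodium-activated channel, differed by -1.27 ± 0.08. Kcnab3, an auxiliary subunit, was lower by 1.38 on the log2 scale. On the other side were Kcng1 at 0.87 ± 0.18, Kcnab2 at 0.68 ± 0.13, Kcnn2 at 0.54 and Kcnj6 at 0.49. Without the trend 2 were lower and 0 higher, without the saline hippocampus array 13 and 0, without the PAMAM hippocampus array 17 and 1, and 6 of the 24 lower genes differed at least 2-fold.

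Sodium, calcium and cation channel genes were even, with 8 of 37 higher and 9 lower (2 and 1 without the trend, 5 and 7 without the saline hippocampus array). The canonical transient receptor potential channels Trpc5 and Trpc4 had -0.48 and -0.47 against -2.07 and -2.19, and 1.72 and 1.66 against 0.19 on both cortex arrays (1.65 ± 0.13 and 1.5 ± 0.09). Scn4b, a sodium channel beta subunit of the striatum list, differed by -3.27 ± 0.09. Of 54 calcium and kinase signalling genes 9 were called higher and 21 lower, with a median of -0.15 (1 and 6 without the trend, 5 and 14 without the saline and 4 and 16 without the PAMAM hippocampus array). Cabp7, a calcium-binding protein, was above background in the hippocampus alone, at least 5.95-fold higher. The regulator of G protein signalling Rgs4 had 2.94 and 3.35 against 4.94 and 4.99 (-1.82 ± 0.10).

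**Figure D5:**
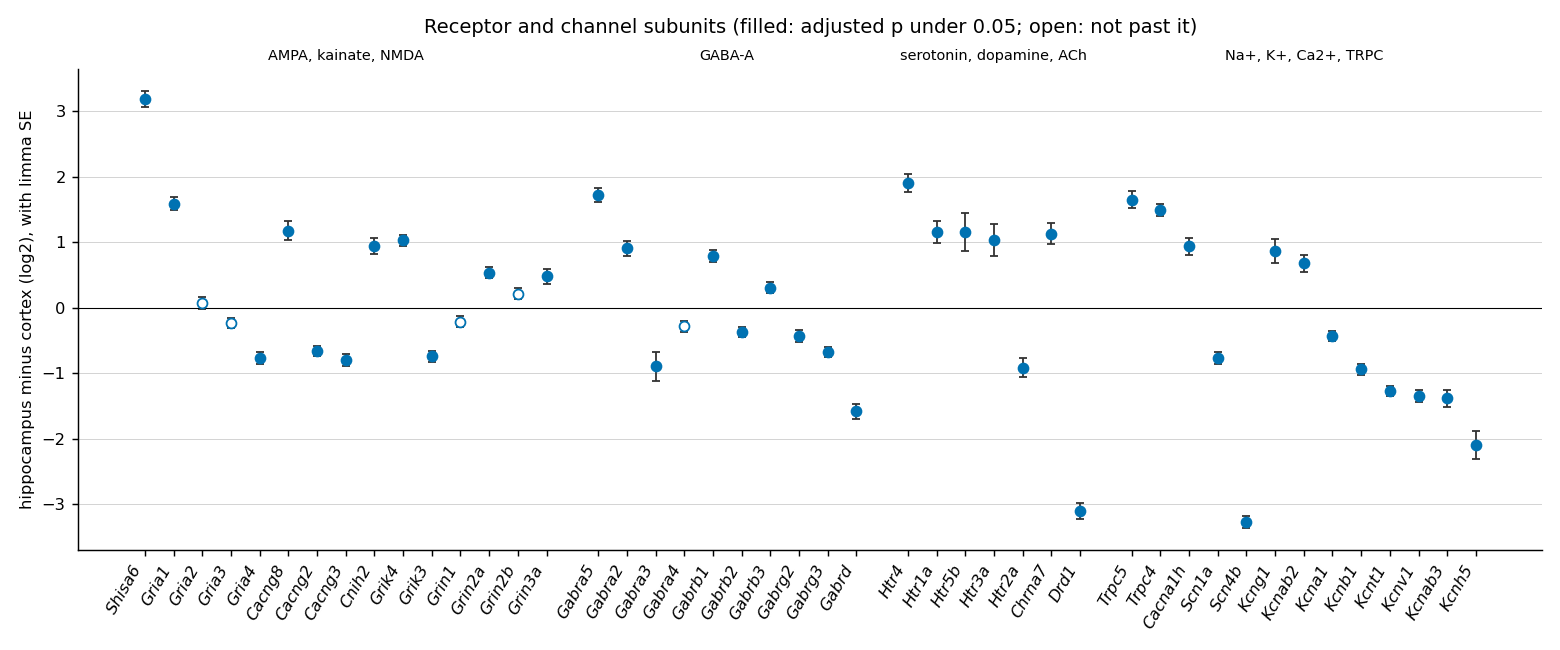
Points are hippocampus minus cortex (log2) with limma's SE for receptor and channel subunit genes, filled where the adjusted p was under 0.05 and open where it was not. Among AMPA receptor subunits Gria1 lies at 1.59 and Gria4 at -0.77, and among GABA-A receptor subunits Gabra5 lies at 1.72 and Gabrd at -1.58.

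Axon guidance genes were called often in both directions, 17 of 53 higher and 13 lower, with a median of -0.08. Slit1, a repellent ligand, had 4.34 and 4.18 in the hippocampus against 2.07 and 2.42 (2.01 ± 0.12), and the semaphorin receptors Nrp1 and Nrp2 were higher by 1.84 ± 0.20 and 1.37 ± 0.11. Sema3a, a ligand of Nrp1, had -2.0 and -1.03 against 0.64 and 1.01 (-2.34 ± 0.15), and Sema3f, a ligand of Nrp2, was lower by 1.15 on the log2 scale. The branch as a whole did not divide into ligands and receptors: the ligand Sema3e was higher by 0.75 ± 0.11, named after its values were seen, and the receptor Plxnd1 lower by 1.54. Among ephrins and their receptors Epha6 was higher by 1.68 ± 0.10 and Efna5 lower by 1.72. Without the trend 2 genes were higher and 3 lower, and without the saline hippocampus array 11 and 8.

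Of 31 cadherin genes 7 were called higher and 12 lower, with a median of -0.19 (4 and 3 without the saline and 4 and 5 without the PAMAM hippocampus array). Pcdh20, a protocadherin, had 2.96 and 2.91 against 0.64 and 0.55 (2.34 ± 0.08, limma adjusted p = 6.2e-06) and was the cadherin that passed without the trend, and Pcdh19, in which mutations cause epilepsy, differed by 1.32 ± 0.10. Cdh7 had -2.60 and -1.68 against -0.51 and -0.65 (-1.57 ± 0.23). Of 43 Wnt pathway genes 4 were called higher and 7 lower (1 and 3 without the saline and 2 and 3 without the PAMAM hippocampus array). In all, 25.6% of the Wnt list was called, against 14.5% of all genes. The ligand Wnt7b was higher by 1.29 ± 0.14, and Wnt10a, with 0.43 and 0.39 against 1.86 and 1.90, was lower by 1.47 on the log2 scale. Both passed also without the trend.

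Growth factor genes included several with large differences, 11 of 37 higher and 11 lower (6 and 2 without the trend, 9 and 5 without the saline and 9 and 4 without the PAMAM hippocampus array). After Ntf3, the fibroblast growth factor Fgf10 had -0.42 and -0.39 against -3.11 and -2.67 (2.48 ± 0.16) and Tgfb2 had 2.56 and 2.49 against 0.08 and 0.27 (2.35 ± 0.09). Igf2, a growth factor that choroid plexus and meninges produce, was higher by 1.79 ± 0.18. Gdnf, a trophic factor for dopaminergic neurons, was above background in the cortex alone, at least 4.25-fold higher, while its receptor Gfra1 was higher in the hippocampus by 1.31 ± 0.16.

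Both corticosteroid receptors differed, in opposite directions. Nr3c2, described above, was 4.15-fold higher in the hippocampus, and Nr3c1, the glucocorticoid receptor, had 3.47 and 3.55 against 4.14 and 3.97 (-0.55 ± 0.09, limma adjusted p = 0.0043, and 0.13 without the trend). Hsd11b1, which regenerates active glucocorticoid in cells, had 1.56 and 1.30 against 0.38 and 0.34 (1.07 ± 0.09). Over the steroid and nuclear receptor list 7 of 27 genes were called higher and 8 lower (2 and 1 without the trend, 5 and 3 without the saline and 5 and 5 without the PAMAM hippocampus array). The lowest was Rarb, a retinoic acid receptor of the striatum list, at -2.61 ± 0.09.

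Glial and vascular genes were called at shares of 30% (astrocytes), 25% (oligodendrocytes), 20% (endothelium) and 0% (microglia), against 14.5% of all genes, and none of these passed without the trend. Of 20 astrocyte genes 2 were called higher and 4 lower (1 and 0 without the saline and 1 and 1 without the PAMAM hippocampus array, and 4 and 4 with quantile normalization). Gfap, the intermediate filament of astrocytes, had 2.25 and 2.31 in the hippocampus against 0.82 and 1.29 (1.23 ± 0.11), with other probes at 0.98 to 1.36, and Aqp4, the water channel of their endfeet, was higher by 0.46 ± 0.09. Of 20 oligodendrocyte genes 0 were higher and 5 lower (lowest -0.43). Without the saline hippocampus array these counts were 1 and 0, without the PAMAM hippocampus array 0 and 1, and without the PAMAM cortex array 0 and 9. Of 20 endothelial genes 1 was higher and 3 lower, with 0 and 0 without either hippocampus array, 1 and 6 without the saline cortex array and 2 and 1 without the PAMAM cortex array. By limma 0 of 20 microglia genes were called, with 8 lower and 0 higher at an unadjusted p under 0.05, 6 lower without the saline cortex array and 1 lower with all 6 arrays in the fit, over a range of -0.29 to 0.31. General neuronal genes had 2 of 20 higher and 4 lower, between -0.53 and 0.38, and the lower calls ranged from 0 without the saline hippocampus array to 8 without the saline cortex array. By limma 0 of 38 cytosolic ribosomal protein genes and 0 of 32 respiratory chain genes were called. At an unadjusted p under 0.05 these counts were 1 lower and 0, and without the saline cortex array 2 of each were lower. Their medians were -0.02 and -0.07.

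Outside the lists, the largest differences on the hippocampus side included Krt18, a keratin of simple epithelia, with 0.51 and 1.09 against -3.36 and -2.48 (3.71 ± 0.13), and Ecrg4, with 1.49 and 2.48 against -2.37 and -0.80 (3.57 ± 0.14). Both were higher on the PAMAM array of each region, as was the summed signal of the choroid plexus list. Il16, a cytokine precursor with a neuronal form, had 0.37 and 0.12 against -3.21 and -2.87 (3.29 ± 0.17), and Klk8, a serine protease of hippocampal plasticity also called neuropsin, had 0.74 and 0.61 against -2.99 and -2.10 (3.22 ± 0.22). Of the 15 largest on this side 5 are in the choroid plexus list, and of the 15 largest on the cortex side 8 are in the striatum list. The cortex side also held Serpina9, a serpin, with -2.57 and -2.59 against 1.55 and 1.20 (-3.95 ± 0.12), and Slc18a3, the vesicular acetylcholine transporter, at -2.64 ± 0.15. In all, 456 genes were above background on both arrays of the hippocampus and neither of the cortex, of which 125 were called. In the cortex alone there were 79, of which 60 were called, and of all genes tested 14.5% were called. The hippocampus arrays had 62.0% and 58.8% of their spots well above background (saline and PAMAM) and the cortex arrays 57.9% and 57.6%. The part of this in the 2 counts was not tested.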

How the data were processed

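Spot intensity, linear, was deposited for each array as Agilent Feature Extraction 10.7.3.1 gave it (design 028005, per the file headers). The arrays share 1 slide and 1 scan, and the saline hippocampus array lies in slide row 1 and the other 3 in row 2. A table of processed log2 values was deposited too. Set against the scanner values over 29245 probes, its columns (medians -0.0459 and 0.0252 for the hippocampus, 0.0432 and 0.0347 for the cortex) equal 75th-percentile-scaled log2 signals centred on each probe's median over the arrays (r at least 0.99987), which settles scale, centring and direction. How the authors treated repeated spots stays unknown.

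The log2 processed signal minus the 75th percentile of the array's non-control spots (640.5 and 547.1 in the hippocampus, saline and PAMAM, and 541.6 and 452.0 in the cortex) was used, with outlier spots dropped and spots of a probe averaged. Names came from the files, updated through RefSeq accessions (GRCm38.p6): 27325 of 55681 probes matched, 2878 with a changed symbol, and 28356 kept the file's name, which can be old. Probe coordinates are mm9.

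Region and treatment were fitted with limma 3.58.1 in R 4.3.3 (lmFit, eBayes with intensity trend, prior degrees of freedom 6.99), and p-values were adjusted by Benjamini-Hochberg over 32146 probes. The code was tested on simulated data in which 200 of 32146 probes were changed. At a limma adjusted p under 0.05, 193 probes were called, and 25 of these were false calls. Of changes of 1 and 2 on the log2 scale, 72% and 96% were recovered. Where both arrays of a region and neither of the other had the probe well above background, "at least N-fold" sets the bright mean against the mean of, per dim array, the higher of its lowest well-above-background signal and the probe's own. The 41 gene lists and the comparison were chosen with earlier results of these data known. Named were the 15 largest called differences in each direction among genes on all 4 arrays, up to 6 called members per list and direction and up to 3 others, the 8 largest bounds a side, 16 fixed genes, and 8 genes whose treatment pairs lay farthest apart. Alternatives were normexp, quantile normalization, other filters on dim probes, no block, all 6 arrays, no trend, the deposited table, the median over a gene's probes, each treatment's arrays alone, and each array left out. The number of arrays limits the precision. Some genes under this rule are not reported here.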

Additional observations from a re-analysis of the deposited data

Results flagged for a closer look

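Lbhd2 and Rhox3a were flagged because the regional difference had opposite signs on the arrays of the treatments, past 2-fold on each. They are examples and not a full count, since 4 of the genes well above background on all 4 arrays were past 2-fold in opposite directions. The difference between treatments was not tested, since each has 1 array a region. Lbhd2 differed by -1.77 on the saline arrays and by 1.14 on the PAMAM arrays. Rhox3a, a reproductive homeobox gene, differed by -2.52 on the saline arrays and by 1.17 on the PAMAM arrays.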

How the results depend on the processing

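No alternative that was run for single genes reversed the sign of any of the 305 named genes that were called. Without the block, with all 6 arrays or without the trend the difference itself stays the same, so those settings could not reverse it. The median over a gene's probes was taken for the lists only. Of 235 genes called and 2-fold with other tested probes, 219 had the same sign on all of those probes. The 305 named genes kept their call in 298 cases with normexp background correction, 302 with quantile normalization, 290 without the treatment block, 300 with all 6 arrays, 118 without the intensity trend and 100 from the deposited table, whose values are centred by probe and so carry no intensity for the trend to follow. With 1 array left out the kept calls were 211 (saline hippocampus), 237 (PAMAM hippocampus), 294 (saline cortex) and 290 (PAMAM cortex), and the lone array of a region was then assumed to vary like the other region's. Leaving out the saline hippocampus array keeps 3 arrays of 1 slide row.

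Under these settings some of the counts moved by over 1.5 times, and the cause was not tested. With 1 array left out, only counts without the 2-fold cut moved so far, and only without a hippocampus array. Normexp gave 222 genes higher and 253 lower at 2-fold. Without a filter on dim probes, 730 genes were lower at 2-fold and 6400 probes were called, with more probes tested. Without the trend 261 genes were higher and 193 lower, all at 2-fold, and 617 probes were called. The deposited table gave 327 and 267 genes, 296 and 216 at 2-fold, and 818 probes. With 1 array left out, 495 to 1635 genes were higher, 595 to 2469 lower, 365 to 608 and 335 to 541 at 2-fold, and 1401 to 5343 probes were called (1401 without the saline and 1721 without the PAMAM hippocampus array).

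List medians moved as follows. Immediate-early genes had -0.45 with normexp, -0.56 with quantile normalization, -0.60 in brighter probes and -0.69 to -0.34 with 1 array left out. Choroid plexus genes had 2.26 with normexp, 2.90 in brighter probes, 3.08 by the median over probes and 2.98 to 3.86 with 1 array left out. Striatum genes had -2.43 with normexp, -2.84 with quantile normalization, -2.75 by the median over probes and -2.94 to -2.86 with 1 array left out. The hippocampal fields had 0.59 with normexp and 0.73 to 0.94 with 1 array left out, and upper layers -0.80 to -0.44.

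Among genes that were not called, the sign of Bdnf turned to -0.08 without the PAMAM hippocampus array and to -0.29 without the saline cortex array, and that of Avp to 1.40 without the saline cortex array (limma adjusted p = 0.034). With each array left out in turn Bdnf ranged from -0.29 to 0.68 and Avp from -2.64 to 1.40. The fit pairs the regions by treatment, and the labels give no replicate numbers for any other pairing.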

Other observations

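Genes of the matrix and of immature neurons were not described above. Of 21 matrix genes 6 were called higher in the hippocampus and 1 lower, with a median of 0.07, and 2 were higher without the intensity trend. Without the saline hippocampus array 3 were higher, and without the saline cortex array 3 were lower. Lamb1, a laminin chain, had 2.23 and 2.17 in the hippocampus against 0.49 and 0.92 in the cortex, Col11a1, a fibrillar collagen chain, differed by 1.38 ± 0.14, and Spon1, which encodes the matrix protein F-spondin, by 1.04 ± 0.10. Of 16 genes of adult neurogenesis and immature neurons 5 were called higher and 3 lower by limma with the trend. Without the trend 0 passed in either direction, without the saline hippocampus array 2 and 1, and without the PAMAM hippocampus array 3 and 1. With the trend, 7 and 4 had an unadjusted p under 0.05. Ccnd2, a cyclin of neural progenitors, was higher by 0.78 ± 0.10, while Dcx, the doublecortin gene of immature neurons, was lower by 0.62 on the log2 scale, with -0.60 and -0.73 against 0.01 and -0.10.

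Other neighbouring tissues gave calls in both directions, at shares of 38.5% (thalamus), 27.3% (hypothalamus) and 53.3% (olfactory bulb), against 14.5% of all genes. Of 13 thalamus genes 2 were higher and 3 lower, of 11 hypothalamus genes 1 and 2, and of 15 olfactory bulb genes 2 and 6. Without the trend 0 of the thalamus and hypothalamus genes passed and 0 and 2 of the olfactory bulb genes, while 3 and 5, 1 and 4, and 3 and 6 had an unadjusted p under 0.05 in the limma fit with it. Without the PAMAM hippocampus array the thalamus counts were 0 and 6, the hypothalamus counts 0 and 1 and the olfactory bulb counts 1 and 3. Without the saline hippocampus array they were 1 and 2, 0 and 1, and 1 and 3, and without the PAMAM cortex array 0 thalamus genes were higher and 4 hypothalamus genes lower. Gbx2, a homeobox gene of the thalamus, was well above background in the cortex alone, at least 2.98-fold higher.

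Some list genes differed far more on one pair of arrays than on the other. Oxt, the oxytocin precursor, had 1.11 on the saline cortex array and between -2.50 and -2.36 on the other 3 arrays, so its difference was -3.61 on the saline and -0.05 on the PAMAM arrays and did not pass. Avp, the vasopressin precursor, had -0.17 on the saline cortex array against -2.35 and -3.26 in the hippocampus, with -4.20 on the PAMAM cortex array. Myrf, a regulator of myelin genes, had -2.13 on the PAMAM hippocampus array and between -4.70 and -4.31 on the other 3. Chrm2, a muscarinic receptor, differed by -1.75 on the saline and 0.29 on the PAMAM arrays.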
